A study of Mus musculus with 12 samples.

Results

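The genes described here are 8 small nucleolar RNA host genes, Gas5, Snhg1, Snhg3, Snhg5, Snhg6, Snhg8, Snhg12 and Snhg20. They were chosen by symbol from the 52636 genes of the deposited tables, and each symbol matched 1 gene. RNA was sequenced from hippocampi of 12 mice of strain C57BL6/J, all wild-type and 18 weeks of age, with 3 mice in each of 4 groups, high-extinction and low-extinction males and high-extinction and low-extinction females. In fear extinction, a learned fear response weakens as its cue comes back without harm. All mice were of the same strain and genotype and no agent is named for any group, so low and high extinction are grades of behaviour among like animals. Libraries were made from polyadenylated RNA, 1 per mouse. The comparison asked whether the host genes differed between low and high extinction in either sex, and every change is given as the low-extinction value minus the high-extinction value.

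Small nucleolar RNAs (snoRNAs) guide the chemical modification of ribosomal and spliceosomal RNA, and most vertebrate snoRNAs are cut from the introns of longer transcripts. Box C/D snoRNAs guide methylation of the ribose and box H/ACA snoRNAs guide the conversion of uridine to pseudouridine, while the related scaRNAs act in Cajal bodies on spliceosomal RNA. In a snoRNA host gene the introns carry the snoRNAs, and the spliced exons, which encode little or no protein, form a long RNA. Such spliced RNAs often start with a run of pyrimidines (a 5′ terminal oligopyrimidine, or TOP, tract), as ribosomal protein mRNAs do, and many are removed by nonsense-mediated decay during translation. Gas5, growth arrest-specific transcript, is known for accumulating when cells stop growing and for binding the glucocorticoid receptor.

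The 8 genes lie on 6 chromosomes of GRCm38, in GENCODE M21, where each is annotated as a processed transcript or lincRNA, that is, as a noncoding gene. Identifiers are as in the deposited files, and coordinates are from the annotation, which lists later versions of Snhg12 (ENSMUSG00000086290.9) and Snhg20 (ENSMUSG00000086859.4). On chromosome 1 the annotation places Gas5 (ENSMUSG00000053332.13) at chr1:161034422-161038539 on the plus strand and Snhg6 (ENSMUSG00000098234.7) at chr1:9941959-9944118 on the minus strand. On chromosome 4 it places Snhg12 (ENSMUSG00000086290.8) at chr4:132308623-132311024 on the plus strand and Snhg3 (ENSMUSG00000085241.7) at chr4:132348014-132353686 on the minus strand. The others are Snhg8 (ENSMUSG00000104960.1) at chr3:123507552-123508404 on the minus strand, Snhg5 (ENSMUSG00000097195.9) at chr9:88521050-88522929 on the minus strand, Snhg20 (ENSMUSG00000086859.3) at chr11:117076008-117078955 on the plus strand and Snhg1 (ENSMUSG00000108414.1) at chr19:8723475-8726443 on the plus strand. Gas5 has 25 annotated transcripts, 20 of which retain an intron, and Snhg1 has 18, of which 14 do, whereas Snhg8 has 3. The genes are short, from 853 bases (Snhg8) to 5673 bases (Snhg3), and their median transcript lengths run from 437 to 915.5 bases.

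The annotation placed 30 snoRNA or scaRNA rows inside the 8 genes, each on the host's strand and each within an intron of at least 1 host transcript. Gas5 held 10 of them, Snhg1 held 8, Snhg12 held 5, Snhg3 and Snhg5 held 2 each, and Snhg6, Snhg8 and Snhg20 held 1 each. The 1 in Snhg20 is a scaRNA, Gm26083. Of the 30, 27 also lay within an exon of another transcript of the host, such as one that retains the intron. The sequences that follow show what the host genes carry: the row with the highest mean level in each host, and both copies of the pairs in Snhg3 and Snhg5. They were read from the plus or minus strand of GRCm38 by the annotation's coordinates and are printed 5′ to 3′. In the first set the capitals mark box C (TGATGA) and box D (CTGA), searched on the RNA's own strand within 20 bases of each end.
Gm22357, in Gas5, chr1:161036057-161036139, plus strand: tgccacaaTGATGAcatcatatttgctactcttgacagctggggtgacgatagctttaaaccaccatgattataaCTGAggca
Gm24452, in Snhg1, chr19:8724531-8724602, plus strand: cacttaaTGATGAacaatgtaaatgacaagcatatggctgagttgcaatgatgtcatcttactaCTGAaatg
Snord50a, in Snhg5, chr9:88521529-88521600, minus strand: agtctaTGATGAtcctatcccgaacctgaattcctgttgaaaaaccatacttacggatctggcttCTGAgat
Snord50b, in Snhg5, chr9:88521797-88521868, minus strand: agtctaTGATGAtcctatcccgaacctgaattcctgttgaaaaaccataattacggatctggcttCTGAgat
Snord87, in Snhg6, chr1:9942463-9942549, minus strand: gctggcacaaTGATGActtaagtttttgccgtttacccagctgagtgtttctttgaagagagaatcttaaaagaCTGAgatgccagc
The boxes C and D were found together in 17 of the 30 rows (56.7%), against 20.2% of all 1558 snoRNA and scaRNA genes of the annotation. Snord50a and Snord50b, the pair inside Snhg5, have the same length of 72 bases and 1 difference, C50A, with Snord50a as the reference and positions counted from its 5′ end. In the second set the capitals mark an ACA box, searched within the last 8 bases of the 3′ end, the mark of the H/ACA class.
Snora73a, in Snhg3, chr4:132352775-132352979, minus strand: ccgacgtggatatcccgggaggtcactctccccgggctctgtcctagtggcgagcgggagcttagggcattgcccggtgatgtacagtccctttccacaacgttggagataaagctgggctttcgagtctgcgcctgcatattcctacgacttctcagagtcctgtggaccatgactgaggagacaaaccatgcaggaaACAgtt
Snora73b, in Snhg3, chr4:132352322-132352526, minus strand: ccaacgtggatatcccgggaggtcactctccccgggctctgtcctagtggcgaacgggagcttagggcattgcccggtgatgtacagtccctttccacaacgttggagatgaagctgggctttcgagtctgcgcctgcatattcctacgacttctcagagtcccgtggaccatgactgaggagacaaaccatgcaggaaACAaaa
Snora24, in Snhg8, chr3:123507937-123508066, minus strand: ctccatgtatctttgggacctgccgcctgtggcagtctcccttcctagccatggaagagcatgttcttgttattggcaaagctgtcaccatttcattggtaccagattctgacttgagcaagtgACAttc
Snora61, in Snhg12, chr4:132310240-132310369, plus strand: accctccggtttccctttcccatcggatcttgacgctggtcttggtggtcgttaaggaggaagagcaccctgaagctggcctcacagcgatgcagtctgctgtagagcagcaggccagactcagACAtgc
Gm26083, in Snhg20, chr11:117077243-117077435, plus strand: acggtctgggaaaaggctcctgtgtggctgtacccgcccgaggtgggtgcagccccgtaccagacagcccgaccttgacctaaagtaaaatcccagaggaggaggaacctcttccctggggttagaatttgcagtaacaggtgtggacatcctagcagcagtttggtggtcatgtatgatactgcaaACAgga
An ACA box was found in 8 of the 30 rows (26.7%), against 47.6% of all such genes of the annotation. Snora73a and Snora73b, the pair inside Snhg3, are 205 bases long and differ at 7 positions. The C and D boxes were found in most rows of Gas5 and Snhg1 and in those of Snhg5 and Snhg6. The ACA box was found in the rows of Snhg3, Snhg8 and Snhg20 and most of Snhg12. Mir5117, a row of Gas5, had boxes C and D and also the ACA box. A match is a description of the letters and not a test of function.

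The starts of the genes are shown because such host genes are known for TOP tracts. RefSeq (GRCm38.p6) gives 8 starts for 7 of the 8 genes, 2 of them for Gas5, and Snhg6 is named only. Each window has 30 bases on either side, and the annotated start is the first base after the first 30. The capitals mark TATAA and the longest run of C or T.
Gas5, chr1:161034571-161034630, plus strand: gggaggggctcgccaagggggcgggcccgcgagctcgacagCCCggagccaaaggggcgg
Gas5, chr1:161035136-161035195, plus strand: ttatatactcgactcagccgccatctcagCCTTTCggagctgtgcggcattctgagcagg
Snhg1, chr19:8723457-8723516, plus strand: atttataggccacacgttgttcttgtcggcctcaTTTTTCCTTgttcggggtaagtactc
Snhg3, chr4:132353657-132353716, minus strand: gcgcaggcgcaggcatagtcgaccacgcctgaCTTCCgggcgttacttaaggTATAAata
Snhg5, chr9:88522868-88522927, minus strand: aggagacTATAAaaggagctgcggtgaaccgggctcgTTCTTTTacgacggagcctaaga
Snhg8, chr3:123508307-123508366, minus strand: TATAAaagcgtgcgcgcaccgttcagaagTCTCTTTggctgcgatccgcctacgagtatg
Snhg12, chr4:132308648-132308707, plus strand: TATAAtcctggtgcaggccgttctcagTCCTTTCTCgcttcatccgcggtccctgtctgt
Snhg20, chr11:117076753-117076812, plus strand: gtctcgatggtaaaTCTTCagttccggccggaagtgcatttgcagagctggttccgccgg
TATAA lay within the 50 bases before the start at 3 of the 8 starts, those of Snhg5, Snhg8 and Snhg12, against 4.93% of 32851 promoters. With its reverse complement TTATA counted as well, it was found at 5 of 8 starts, against 6.36%, and the 2 added are Snhg1 and the Gas5 start of the window chr1:161035136-161035195. The longest run of C or T in the window had 9 letters in Snhg1 and Snhg12, a length that 15.6% of all promoters reached. It had 7 letters in Snhg5 and Snhg8 (33.8% of promoters) and 6 at that Gas5 start (49.6%). In Snhg3 and Snhg20 it had 5 letters (70.9%), and at the other Gas5 start 3 (97.8%). The run was taken from anywhere in the window, and in Snhg20 it lies wholly before the annotated start. Its length is therefore not a measure of a TOP tract, with which an RNA starts. TATAA also lies after the annotated start in the window of Snhg3, which is not counted here.

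Levels are TPM as deposited, which are per transcript length and sum to a fixed total per library. A library held 18170 to 19062 genes at 1 TPM or more, and the number of reads behind a library is unknown. Replicate 1 of the high-extinction males stood apart: 3 transcripts derived from ribosomal RNA took 23.5% of its TPM, against 7.04% to 16.6% in the other libraries. It was also the lowest of the 12 libraries for Gas5, Snhg5, Snhg6, Snhg8 and Snhg12. When TPM were rescaled without the 3 transcripts it stayed the lowest for Gas5, Snhg6 and Snhg8. Each of 13 hippocampal markers averaged at least 1 TPM, and their sum ran from 4009 to 5197 TPM. That sum rests mostly on Snap25 (mean of 1916 TPM), Camk2a (1271 TPM) and Slc17a7 (698 TPM), and the choroid plexus sum below mostly on Ttr (958 TPM). Markers of neighbouring tissue were present as well. The 12 choroid plexus markers summed to 344 to 3549 TPM in high-extinction males and 61.3 to 996 TPM in low-extinction males, and to 27.6 to 1299 TPM and 111 to 1112 TPM in high- and low-extinction females. The 11 ependymal markers, 8 of them averaging at least 1 TPM, summed to 57.1 to 66.8 TPM in high- and 19.4 to 40.4 TPM in low-extinction males, and to 28.2 to 59.5 TPM and 43.7 to 67.6 TPM in high- and low-extinction females. The 12 thalamus and habenula markers, 10 of them at that level, summed to 105 to 127 TPM in high- and 164 to 165 TPM in low-extinction females, and to 108 to 146 TPM and 87.3 to 126 TPM in high- and low-extinction males. The 11 meningeal markers summed to 112 to 122 TPM in high- and 144 to 172 TPM in low-extinction females, and to 135 to 157 TPM and 67.5 to 124 TPM in high- and low-extinction males. Sntn, an ependymal marker, and Gbx2, a thalamic marker, were at 0 in at least 1 library. The authors' deposited tables called 5 of 11 ependymal and 1 of 11 meningeal markers lower at low extinction in males, against 0.504% of all genes. In females they called 6 of 11 meningeal markers and 3 of 11 thalamus and habenula markers with an adjusted p higher. They also called 1 of 13 hippocampal markers lower in females, where 0.857% of all genes were called. Choroid plexus markers had 0 called, of 10 with an adjusted p in males, where Ttr and Kcne2 had none, and 12 in females. In males 0 of the 12 changes were above 0 in either measure, against 43.1% of genes in TPM and 47.8% in the deposited table. In females 7 were above 0 in TPM and 0 in the deposited table, against 69.1% and 46.2%. Limma called 0 in each of these lists, against 0% of all genes in males and 0.0107% in females. The marker lists were chosen with earlier results of these data known. The part of these markers in the host gene results was not tested. In whole tissue, fewer cells of a type and less RNA per cell cannot be told apart.

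Gas5 was the most abundant of the 8 genes, and the 7 others formed a descending series whose ranges overlapped from one gene to the next. Gas5 had a mean of 136 ± 12.5 TPM (SD, n = 12), with a lowest library of 104 TPM, a median of 138 TPM and a highest of 154 TPM. It made up 48.4% to 54.1% of the summed TPM of the 8 genes in every library, and its mean exceeded that of 95.3% of the genes whose own mean reached 1 TPM. Snhg8 followed with 37.3 ± 4.84 TPM (SD, n = 12), and its highest library, at 45.3 TPM, lay below the lowest of Gas5. Snhg12 had a mean of 24.6 TPM, Snhg20 of 21.8 TPM, Snhg6 of 15.3 TPM and Snhg1 of 13.4 TPM. Snhg5, at 9.54 TPM, and Snhg3, at 8.16 TPM, were the least abundant. Within a library, Snhg8 exceeded Snhg12, Snhg20 exceeded Snhg6 and Snhg1 exceeded Snhg5 in 12 of 12 cases. Snhg12 exceeded Snhg20 in 9, Snhg6 exceeded Snhg1 in 8 and Snhg5 exceeded Snhg3 in 7 of 12, so these neighbours do not differ beyond their spread.

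**Figure D1:**
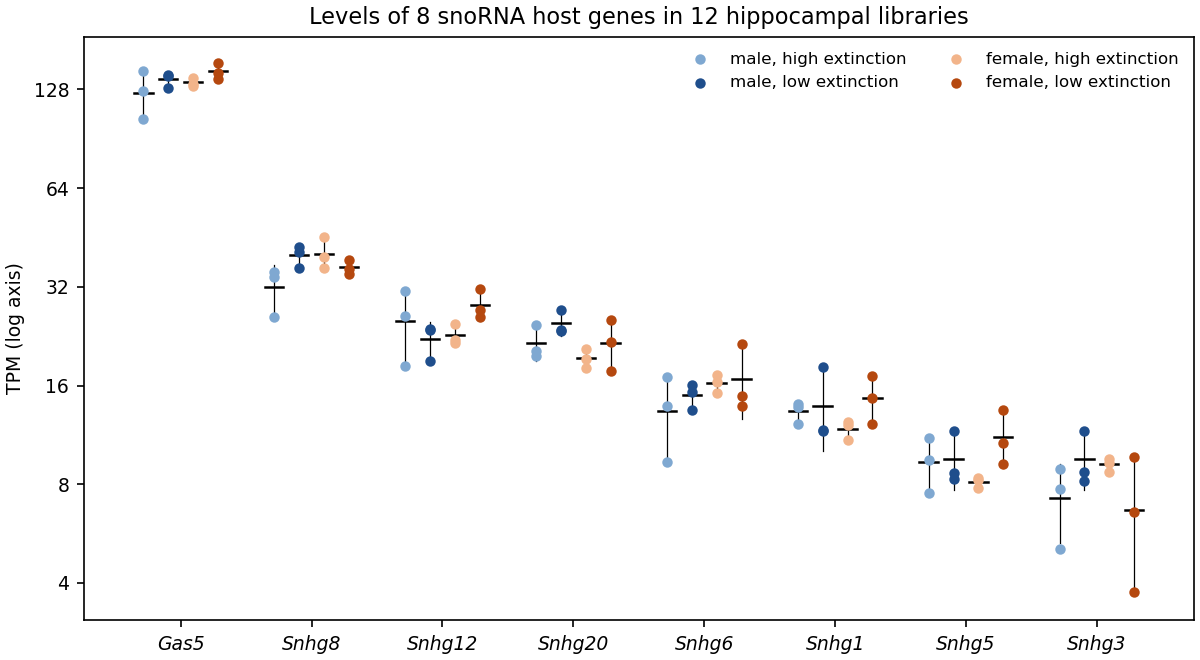
TPM (log axis) of each host gene in 12 hippocampal libraries, ordered by mean level, with points for mice, horizontal bars for group means and vertical bars for the SD (n = 3). The Gas5 points lie between 104 and 154 TPM, above all points of the other genes, and the points of low and high extinction overlap in most genes.

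With all 12 libraries in, the host genes varied more between mice of 1 group than most genes of like level. The within-group SD of log2(TPM + 1) was 0.13 for Gas5, against a median of 0.12 over 1981 genes whose mean lay within 2-fold of it. It was largest for Snhg3, at 0.37 against a median of 0.16 over 5327 such genes, and 93.0% of those had a smaller SD. In the other 6 genes the share of genes of like level with a smaller SD ran from 68.0% (Snhg20) to 88.6% (Snhg6), and in Gas5 it was 62.7%. These SDs include replicate 1 of the high-extinction males and were not computed without it. High-extinction males had the largest group SD in Gas5 (20.6 TPM, against 3.95 to 8.04), Snhg12 (6.44 TPM, against 1.65 to 2.96) and Snhg8. In Snhg1, Snhg3, Snhg5, Snhg6 and Snhg20 another group had the largest.

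In males, no host gene passed the test between low and high extinction, and the libraries of the 2 groups did not overlap for Snhg8. High-extinction males had 25.9, 34.4 and 35.6 TPM of Snhg8, whereas the 3 low-extinction males had 36.6, 41.0 and 42.4 TPM. Every low-extinction male was above every high-extinction male, though by less than 1 TPM at the nearest pair. Among all 18303 genes tested, 4.2% showed this separation in this direction, and 1 of the 8 host genes did. The opposite separation, every low below every high library, was shown by 7.28% of genes and by 0 of the 8. The change of Snhg8 on the log2(TPM + 1) scale was 0.32 with an SE of 0.13, a 1.25-fold difference, with an unadjusted p of 0.043 and a limma adjusted p of 0.774. Without replicate 1 of the high-extinction males, its lowest library, the change was 0.18 (limma adjusted p = 0.612).

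Gas5 measured 104, 126 and 145 TPM in high-extinction males, and low-extinction males had 129, 141 and 142 TPM. The highest of these 6 libraries was a high-extinction one, so the groups overlapped. The change was 0.14 with an SE of 0.13 (limma adjusted p = 0.945), 0.02 without replicate 1 of the high-extinction males and 0.26 without replicate 2. In the authors' deposited DESeq2 table, which rests on counts, Gas5 was 1.17-fold higher in low-extinction males (log2 0.23, SE 0.08), with an unadjusted p of 0.0036 and an adjusted p of 0.228. No library can be left out of that table.

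Snhg20, the host of a scaRNA, lay at 19.7, 20.4 and 24.5 TPM in high- and at 23.5, 23.6 and 27.2 TPM in low-extinction males, and its change was 0.20 with an SE of 0.11 (limma adjusted p = 0.859), or 0.13 without replicate 2 of the low-extinction males. Snhg3 lay at 5.09, 7.76 and 8.88 TPM in high- and at 8.20, 8.72 and 11.6 TPM in low-extinction males. Its change was 0.37 with an SE of 0.20 (limma adjusted p = 0.859), and the groups overlapped. Leaving out replicate 2 of the high-extinction males gave 0.16, and leaving out low-extinction replicate 1 gave 0.23. Snhg6 changed from a mean of 13.4 ± 3.81 TPM to 14.9 ± 1.31 TPM (SD, n = 3 each). Snhg1 and Snhg5 had changes of 0.02 each, and Snhg12 was the 1 gene below 0, at -0.15 with an SE of 0.19. The change of Snhg12 came to 0.01 with high-extinction replicate 3 left out and to -0.35 with replicate 1 left out, and that of Snhg1 to -0.18 with low-extinction replicate 3 left out. The changes of Snhg5 and Snhg6 fell below 0 without replicate 1 of the high-extinction males (-0.11 and -0.04), and that of Snhg5 also without replicate 1 of the low-extinction males (-0.11).

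Over the 8 genes in males, limma called 0 at an adjusted p under 0.05 (0% of the 18303 genes tested) and 1 at an unadjusted p under 0.05, Snhg8, against 6.29% of all genes. The authors' deposited table also called 0 of 8, against 0.504% of its genes, with 2 at an unadjusted p under 0.05, Gas5 and Snhg8, against 7.58%. The change was above 0 in 7 of 8 in TPM, against 43.1% of genes, and in 7 of 8 in the authors' deposited table, against 47.8%. The gene below 0 was Snhg12 in TPM and Snhg3 in the deposited table. The median change was 0.16 in TPM, against -0.02 over all genes. Without replicate 1 of the high-extinction males it was 0.03, against -0.07 over all genes.

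In females, Snhg5 and Snhg12 were higher in every low-extinction mouse than in every high-extinction mouse, and neither passed the test. Snhg5, the host of the Snord50 pair, measured 7.80, 8.26 and 8.34 TPM in high-extinction females, and low-extinction females had 9.22, 10.7 and 13.5 TPM. The low-extinction libraries spread more widely than the high-extinction ones. The change was 0.39 with an SE of 0.13, a 1.31-fold difference on the log2(TPM + 1) scale, with an unadjusted p of 0.022 and a limma adjusted p of 0.540. Without replicate 3 of the low-extinction females it was 0.26. Snhg12, which carries Snora16a, Snora44, Snora61 and Snord99, lay at 21.6, 22.03 and 24.6 TPM in high- and at 25.9, 27.2 and 31.5 TPM in low-extinction females. Its change was 0.30 with an SE of 0.10, a 1.23-fold difference, with an unadjusted p of 0.018 and a limma adjusted p of 0.540. Separation in this direction was common among the genes tested in females, at 14.3% of 18668, and 2 of the 8 host genes showed it. The opposite separation was shown by 1.98% of genes and by 0 of the 8.

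The deposited counts gave smaller changes for these 2 genes. In the authors' deposited table Snhg5 was 1.17-fold higher in low-extinction females (log2 0.22, SE 0.16, adjusted p = 0.708) and Snhg12 1.04-fold higher (log2 0.06, SE 0.12, adjusted p = 0.933). The value for Snhg12 is thus 0.06 in counts and 0.30 in TPM, and in males it is 0.04 in counts and -0.15 in TPM.

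Snhg1, which carries 8 snoRNAs, lay at 10.9, 12.1 and 12.4 TPM in high- and at 12.2, 14.6 and 17.1 TPM in low-extinction females, with a change of 0.28 and an SE of 0.13 (limma adjusted p = 0.585). Gas5 lay at 131, 133 and 139 TPM in high- and at 138, 144 and 154 TPM in low-extinction females, with a change of 0.11 and an SE of 0.06 (limma adjusted p = 0.624). In both genes the lowest low-extinction mouse lay just below the highest high-extinction mouse. Without replicate 2 of the low-extinction females the changes of Snhg1 and Gas5 were 0.16 and 0.07. The change of Snhg20 was 0.14, or 0.02 and 0.27 without replicates 1 and 2 of the low-extinction females, and that of Snhg6 was 0.02. Snhg8 lay at 36.6, 39.4 and 45.3 TPM in high- and at 34.9, 36.4 and 38.8 TPM in low-extinction females, with a change of -0.13 and an SE of 0.09, or -0.05 and -0.20 without replicates 1 and 2 of the high-extinction females. Snhg3 had the lowest value of the whole set, 3.76 TPM (replicate 2 among low-extinction females), and its change was -0.48 with an SE of 0.27 (limma adjusted p = 0.627). With that library left out the change was -0.18, and with replicate 3 of the same group left out it was -0.76.

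Over the 8 genes in females, limma called 0 at an adjusted p under 0.05 (0.0107% of 18668 genes) and 2 at an unadjusted p under 0.05, Snhg5 and Snhg12, against 8.83%. The authors' deposited table called 0 of the 7 with an adjusted p, against 0.857%, and it gives none for Snhg3. None of the 8 had an unadjusted p under 0.05 there, against 8.65% of genes. The change was above 0 in 6 of 8 in TPM, where 69.1% of all genes were above 0, and in 6 of 8 in the authors' deposited table, where 46.2% were. The median was 0.12 in TPM, against 0.06 over all genes tested.

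**Figure D2:**
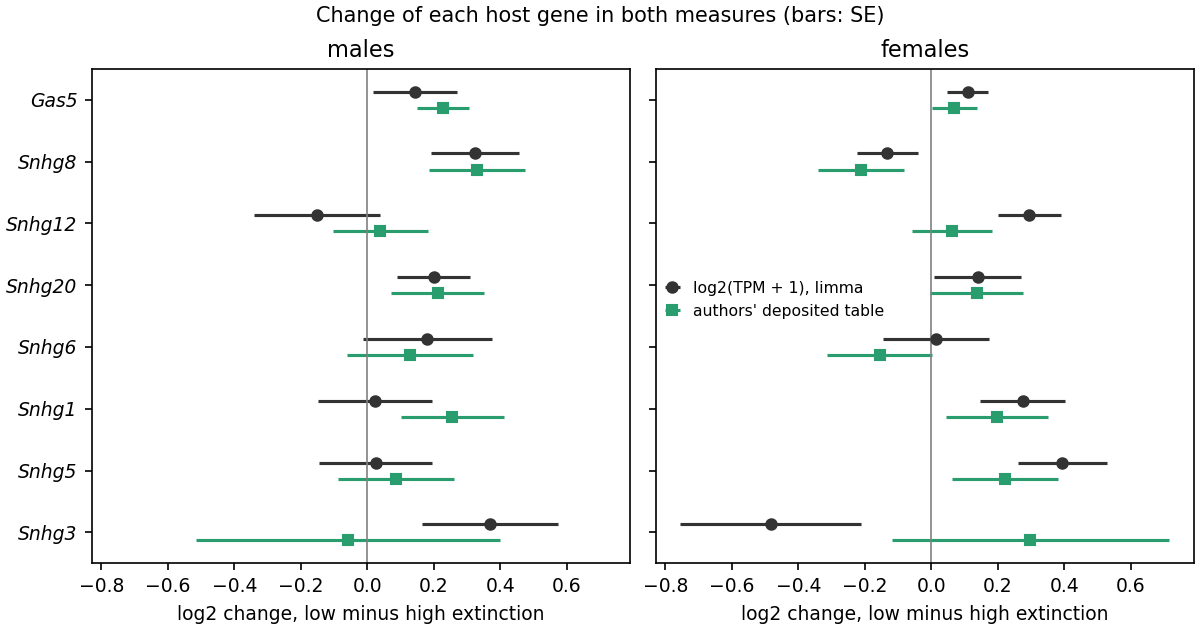
Change of each host gene between low and high extinction (log2, low minus high) in males and females, from log2(TPM + 1) with limma (circles) and from the authors' deposited DESeq2 table (squares), with bars for the SE. In males all but Snhg3 and Snhg12 lie right of 0 in both measures. Snhg3 changes side between the measures in each sex, as do Snhg12 in males and Snhg6 in females.

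Gas5, Snhg1, Snhg5 and Snhg20 were above 0 in both sexes and in both measures. In TPM Snhg6 was also above 0 in both sexes, which makes 5 of 8 against 29.7% of genes tested in both, though Snhg6 in females fell below 0 when libraries were rescaled (-0.03 without the ribosomal RNA-derived rows). In the authors' deposited tables Snhg12 was the fifth, against 24% of genes. Averaged over the sexes, limma called 0 of 8 (0% of 18499 genes), and 0 had an unadjusted p under 0.05 (7.7% of genes). The average change was above 0 in 7 of 8, against 57.8% of genes, with a median of 0.11 against 0.02. Leaving out replicate 1 of the high-extinction males gave a median of 0.05, against -0.006 over all genes. The average of Snhg5 was 0.21 with an SE of 0.11 (limma adjusted p = 0.736) and ran from 0.14 to 0.27 as each library was left out. That of Snhg20 was 0.17 with an SE of 0.09 (limma adjusted p = 0.718), and leaving out female low-extinction replicate 1 gave 0.11. When the authors' 2 deposited fold changes were averaged, Gas5 gave 0.15 with an SE of 0.05 (p = 0.0042, adjusted p = 0.200) and Snhg1 gave 0.23 with an SE of 0.11 (p = 0.038, adjusted p = 0.4997). These 2 of 8 compare with 3.94% of genes at an unadjusted p under 0.05 and higher at low extinction, and 0 of 8 passed after adjustment, against 0.848%.

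The difference between the sexes had an unadjusted p under 0.05 in TPM for Snhg3 and Snhg8, and it did not pass for any host gene. For Snhg8 the male change exceeded the female change by 0.46 with an SE of 0.17, with an unadjusted p of 0.021 and a limma adjusted p of 0.565. From the authors' deposited tables the same difference was 0.54, with a 95% interval from 0.16 to 0.92 (p = 0.0055, adjusted p = 0.396). For Snhg3 the difference was 0.85 with an SE of 0.37 in TPM, with an unadjusted p of 0.042 and a limma adjusted p of 0.612. Without replicate 2 of the low-extinction females it was 0.54. It was -0.36 with an SE of 0.62 from the deposited tables, and the 2 measures differ in sign. At an unadjusted p under 0.05, 2 of 8 compare with 7.92% of genes in TPM, and 1 of 8 with 6.01% in the deposited tables. After adjustment 0 of 8 passed, against 0.00541% and 0.333%. After rescaling without the ribosomal RNA-derived transcripts, Snhg8 lay at 42.5 to 50.8 rescaled TPM in high- and at 39.2 to 41.7 in low-extinction females, and at 33.9 to 40.0 in high- and 43.8 to 49.3 in low-extinction males. On that scale, added after the values were seen, the libraries of the 2 extinction groups did not overlap in either sex, in opposite directions. In males, every low-extinction library was above every high-extinction one in 1 of 8, against 4.43% of genes, and below in 0 of 8, against 9.38%. In females it was above in 2 of 8 (Snhg5 and Snhg12), against 8.88%, and below in 1 of 8, against 4.78%.

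Snhg3 is measured less surely than the other host genes. It overlaps Rcc1, a gene for a regulator of the Ran GTPase, on the same strand of chromosome 4, by 5592 of the 5673 bases of Snhg3. The mean normalized count of Snhg3 in the authors' deposited tables was 30.3 in males and 29.7 in females, against 218 to 2852 for the 7 others. Per TPM and per 1000 bases of median transcript length, Snhg3 had 8.28 counts in males and 8.55 in females, whereas the others had 18.3 to 41.0. Reads shared by overlapping genes can be dropped or split in counting, and whether that happened here was not tested. Rcc1 itself had a mean of 9.85 TPM and a change of -0.24 in males and 0.01 in females (limma adjusted p = 0.860 and 0.989), and the lincRNA Gm17300, at 2.43 TPM, overlaps Snhg3 on the opposite strand.

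The genes next to the other hosts were called in neither sex by limma or the authors' deposited tables. Those tables called 0.504% of all genes in males and 0.857% in females. Zbtb37, a zinc finger gene, overlaps Gas5 by 428 bases on the opposite strand and had 6.63 TPM. Slc3a2, a subunit of amino acid transporters, starts 106 bases from Snhg1 on the opposite strand and had 102.9 TPM. Its level changed by -0.07 in males and 0.04 in females. Mcmdc2 overlaps Snhg6 by 127 bases on the opposite strand and had 2.62 TPM. The sources used here do not say whether counting was stranded, so reads in these overlaps cannot be assigned.

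The small RNAs inside the hosts were nearly all at low TPM, and 28 of the 30 rows had a deposited mean count of 0. Of 30 rows, 12 averaged at least 1 TPM, 4 reached 1 TPM in all 12 libraries and 12 stayed under 1 TPM in every library. Gm22357, the box C/D RNA of Gas5 shown above, was highest with a mean of 20.1 TPM and a range of 13.8 to 26.1 TPM. Snora61 in Snhg12 had a mean of 6.63 TPM and ran from 3.65 to 13.7 TPM. Gm25789 in Gas5, in contrast, ran from 0.25 to 10.0 TPM, and 6 of its 12 libraries were at 1 TPM or more. Snord80 and Snora16a are each annotated as 2 rows at nearly the same place, and almost all TPM went to 1 row of each pair (8.47 against 0.00037 TPM, and 3.89 against 0.066 TPM). Of the 30 rows, 28 had, in the tables the authors deposited, this mean of 0 in both sexes, Gm22357 and Snora61 included. The other 2 were Snord87, with 2.69 in males and 2.50 in females, and the Snora16a row with the lower TPM, with 6.28 and 8.50. The cause of this gap between the 2 measures was not tested. Libraries of polyadenylated RNA are not made to capture mature snoRNAs, and no change of these rows is reported.

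**Figure D3:**
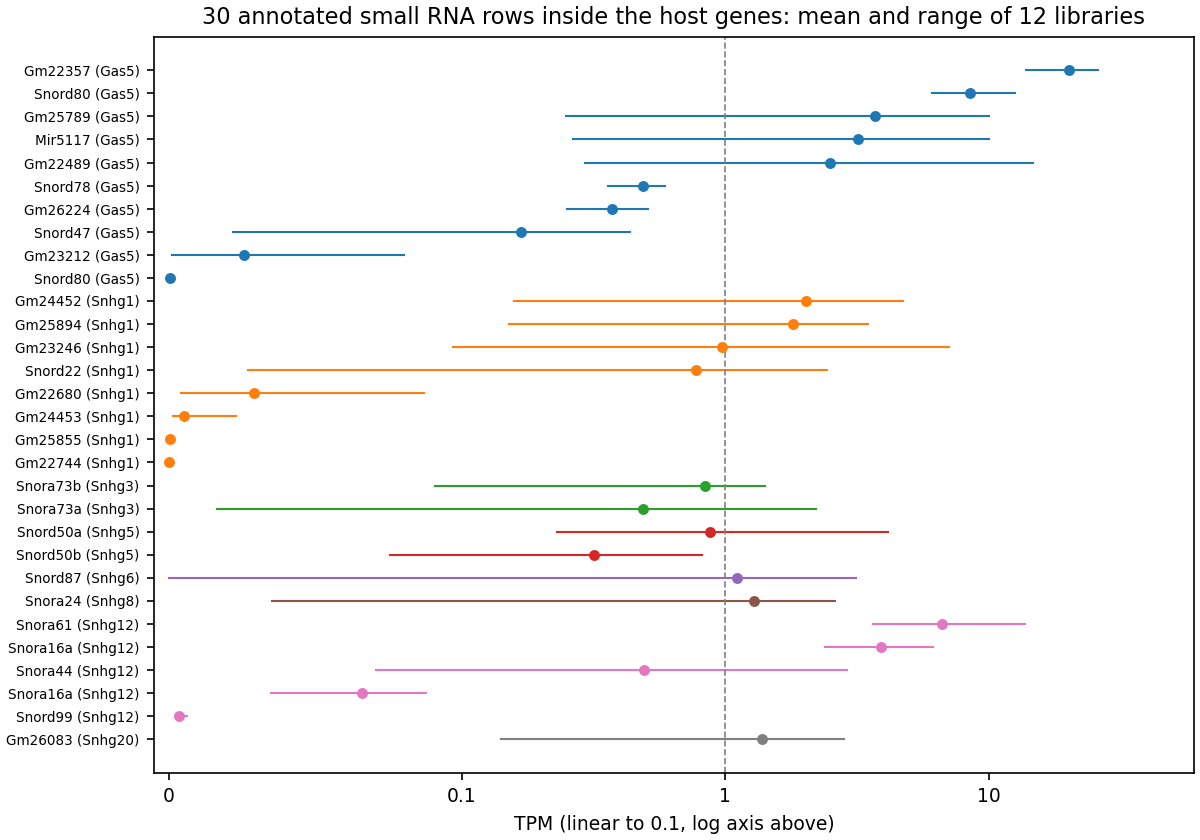
Mean (points) and range over 12 libraries (lines) of TPM for the 30 annotated snoRNA and scaRNA rows inside the host genes, coloured by host, with a dashed line at 1 TPM. Only 4 rows, Gm22357, 1 Snord80 row, 1 Snora16a row and Snora61, lie wholly right of the line.

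The host genes did not move as 1 unit across mice. After centring log2(TPM + 1) within each sex, the 28 pairs of host genes had a median Pearson r of 0.21 over 12 libraries, and 21 pairs were positive. Snhg6 with Snhg8 was highest at 0.66, followed by Gas5 with Snhg8 at 0.63, and Snhg3 with Snhg12 was lowest at -0.66. Without replicate 1 of the high-extinction males, the median was 0.05 and 14 of 28 pairs were positive. Libraries share the total to which TPM is scaled, so these values describe the libraries and carry no test. The ribosomal RNA-derived share went with lower levels of several host genes, with r of -0.83 for Snhg6, -0.80 for Snhg12, -0.72 for Gas5, -0.67 for Snhg5 and -0.58 for Snhg8. Without the same library these were -0.60, -0.77, -0.26, -0.63 and 0.06. For Snhg1, Snhg20 and Snhg3, r with that share was -0.15, -0.11 and 0.21, and without that library -0.30, 0.24 and 0.21. With the share of TPM taken by mitochondrial transcripts, r over 12 libraries was 0.85 for Gas5, 0.74 for Snhg12, 0.69 for Snhg8 and 0.63 for Snhg6. It was 0.53 for Snhg5, 0.24 for Snhg1, -0.01 for Snhg20 and -0.35 for Snhg3, and was not computed without that library. The part of either share in the differences between groups was not tested.

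**Figure D4:**
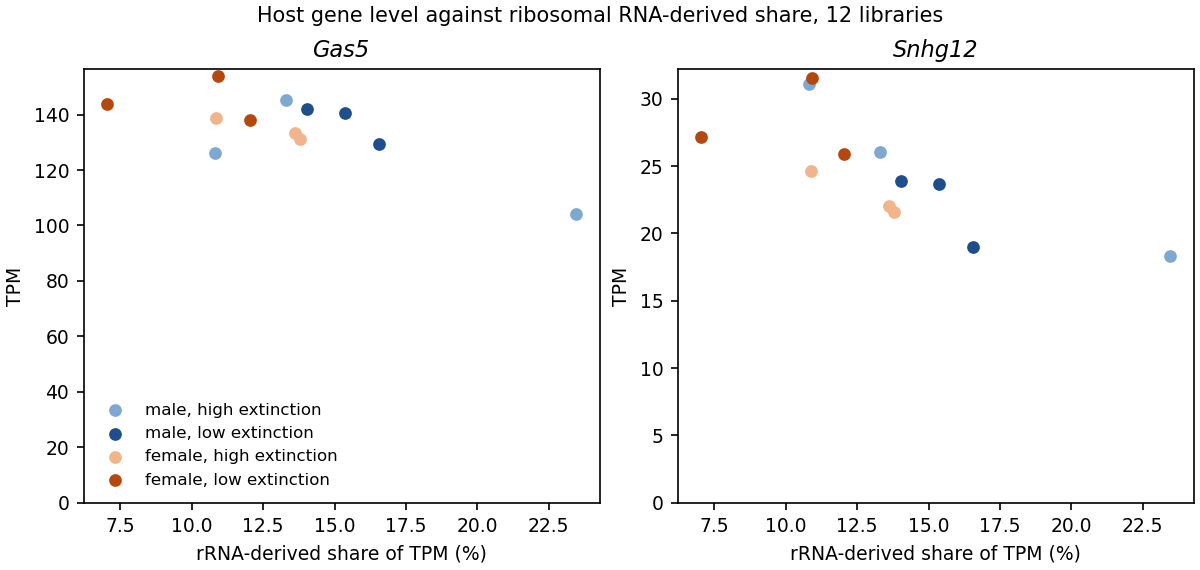
TPM of Gas5 and Snhg12 against the share of TPM taken by ribosomal RNA-derived transcripts (%) in 12 libraries, coloured by sex and extinction group. The library at 23.5% is replicate 1 of the high-extinction males, with 104 TPM of Gas5 and 18.3 TPM of Snhg12, and Snhg12 also declines over the other 11 libraries.

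The genes whose pattern was most like the mean of the 8, among 12913 genes averaging at least 5 TPM, were Zfyve27 (r = 0.94), Plpp6 (0.91), Pttg1ip (0.91), Mars (0.91) and Pelo (0.91), over 12 libraries. Those most like Gas5 alone were Uqcrh (r = 0.95), Gm12254 (0.94), Gm3788 (0.94), Rpl17-ps5 (0.94) and AC153899.1 (0.93). Uqcrh encodes a subunit of respiratory complex III, and Rpl17-ps5 is named as a ribosomal protein pseudogene. Without replicate 1 of the high-extinction males, r ran from 0.85 to 0.95 for the first 5 and from 0.84 to 0.92 for the second 5. Both sets were picked for their high r in these same libraries, so the values carry no test. The host genes themselves had r with the mean of the 8 from 0.19 (Snhg3) to 0.92 (Snhg6).

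Other snoRNA host RNA genes, 10 of which were in the files, held 1 gene that passed, Snhg11. In the authors' deposited tables Snhg11 was 1.21-fold higher at low extinction in males (adjusted p = 0.0025) and 1.24-fold higher in females (adjusted p = 8.2e-05), where 0.504% and 0.857% of all genes passed. It is far more abundant than the 8 genes described here, with a mean of 587 TPM. Limma called none of the 9 tested in either sex, against 0% of all genes in males and 0.0107% in females. The limma adjusted p of Snhg11 was 0.766 in males and 0.407 in females. This list was chosen with earlier results of these data known. Snhg14, the next most abundant at 131 TPM, was 1.10-fold and 1.12-fold higher without passing (DESeq2 adjusted p = 0.814 and 0.288).

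Protein-coding genes that carry snoRNAs in their introns, mostly ribosomal protein and translation factor genes, had 0 of 24 called by limma or in the authors' deposited tables in either sex. Their median change in TPM was 0.03 in males and 0.00 in females, and the 2 most abundant, Eef2 (581 TPM) and Rpl4 (332 TPM), changed by -0.01 and 0.04 in males and by 0.01 and -0.02 in females. The core proteins of snoRNA particles had 0 of 8 called, with Snu13 at 56.6 TPM and Nop56 at 45.0 TPM the most abundant. Factors that assemble these particles had 0 of 11 called and factors of nonsense-mediated decay 0 of 17, again by both measures. The most abundant were Nolc1 and Pih1d1 in the first of these lists and Gspt1 and Etf1 in the second. Their medians in males were -0.13 and -0.05, and in females 0.07 and 0.03, against -0.02 and 0.06 over all genes tested.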

How the data were processed

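Hippocampal RNA of 12 mice was enriched for polyadenylated RNA and sequenced, per the labels' protocols. Named without roles in the submitters' processing notes are the builds mm10 and GRCm38.p5 and the tools StringTie 1.3.3b, HTSeq, TopHat2 and Bowtie2. The authors deposited TPM per gene and mouse in a table for each sex, which keeps no depth. For each sex a second table, made with DESeq2 per the file headers, was deposited with a mean normalized count (a signal averaged over libraries), a log2 fold change, its standard error, a test statistic (a score), a p-value and an adjusted p-value. Those headers name no direction. The log2 fold change correlated across genes at -0.58 (males) and -0.46 (females) with the TPM change (low minus high), and 90 of 90 and 131 of 132 called genes averaging at least 1 TPM had the opposite sign, so it was multiplied by -1.

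Mice were grouped by their labels, and replicate numbers follow record order and pair no mice. Genes averaging at least 1 TPM, as all 8 host genes did, entered a limma fit (version 3.58.1, R 4.3.3) on log2(TPM + 1), a scale on which low genes' changes come out too small, with a mean-variance trend and a Benjamini-Hochberg adjusted threshold of 0.05. Each sex was fitted on its 6 libraries, and the average and the difference of the sexes on 12. The sexes' tables were made separately, so levels set across them rest on the deposited scale. Averages and differences of the authors' fold changes used a normal test. Intervals are at 95%. On simulated data, the limma step called 22% (males), 34% (females), 56% (average) and 12% (difference) of genes planted at a log2 change of 0.5, and 64%, 74%, 94% and 70% at 1, among 18303, 18668, 18499 and 18499 genes. The simulated noise was independent between genes, with no shift shared by a library, and the planted genes were drawn at random. The host genes varied more than most genes of like level, so these shares may be too high for them. The host genes and all gene lists were chosen with earlier results of these data known. Named were the 8 host genes, the 5 most alike genes, all neighbours and the small RNAs whose sequence is shown. Called genes of the lists, or their 2 most abundant, were named as well, except in the marker lists, where calls were only counted. Other small RNAs, pairs and markers were picked for naming with their values in view. Alternatives tried were other pseudocounts, filters, scalings, no trend, a joint fit and leaving out each replicate. Added after seeing the data were combining the deposited tables and rescaling without 3 ribosomal RNA-derived rows. Figures used Python 3.11.15 with matplotlib 3.10.9.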

Additional observations from a re-analysis of the deposited data

How the results depend on the processing

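The count of host genes called stayed at 0 under every alternative run, and the 3 medians stayed above 0. Leaving out 1 replicate gave male medians of 0.0319 to 0.2072, female medians of 0.1148 to 0.1393 and averages over the sexes of 0.0451 to 0.1457. In both males and the average the lowest value came without replicate 1 of the high-extinction males. Other settings gave 0.1378 to 0.1965, 0.0602 to 0.128 and 0.0854 to 0.1161. For single genes, 8 of 320 other settings and 17 of 288 fits without 1 replicate turned the sign, all of changes that had not passed. Snhg6 in females turned to -0.0477 with equal medians, -0.0521 with quantile normalization, -0.0195 without ribosomal RNA-derived and mitochondrial rows and -0.0277 without the former alone. Combining the authors' deposited tables turned the averages of Snhg3 (0.1197) and Snhg6 (-0.0133) and the sex differences of Snhg1 (0.0575) and Snhg3 (-0.3571), and the cause was not tested. Without 1 replicate, the male changes ran from -0.1772 to 0.1254 (Snhg1), -0.1138 to 0.1421 (Snhg5), -0.0387 to 0.3565 (Snhg6) and -0.3549 to 0.0114 (Snhg12), and the female change of Snhg6 from -0.1672 to 0.1302. The averages ran from -0.1966 to 0.0962 (Snhg3), -0.0117 to 0.1859 (Snhg6) and -0.0298 to 0.1534 (Snhg12), and the sex differences from -0.0907 to 0.148 (Gas5), -0.0539 to 0.3473 (Snhg6) and -0.0688 to 0.1777 (Snhg20). No paired analysis was possible because the labels give no replicate numbers that mice of different groups share. Depth per library is unknown, and 3 mice per group limit what can be called.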

Other observations

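Among 9 regulators of TOP mRNAs, the authors' deposited tables called 1 higher at low extinction in males, the RNA-binding protein Tia1, against 0.504% of all genes, and 2 in females, Tia1 and its relative Tial1, against 0.857%. Tial1 was 1.16-fold higher in females (adjusted p = 0.042) and 1.09-fold higher in males without passing (adjusted p = 0.717). Of 8 nuclear-retained long noncoding RNAs, the authors' deposited tables called 3 higher at low extinction in males, Miat, Malat1 and Meg3, and 1 in females, Meg3, against the same shares of all genes. Limma called none of either list in either sex, against 0% of all genes in males and 0.0107% in females. Both lists were chosen with earlier results of these data known, so these counts carry no test of the lists.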
